A study of Mus musculus with 12 samples.

Results

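Hematopoietic stem cells (HSCs) of mice that carried both NrasG12D/+ and Tet2+/- were compared with HSCs of wild-type mice. The comparison uses 6 of the 12 libraries of the series, 3 of the compound genotype NrasG12D/+;Tet2+/- and 3 of wild type, and every gene whose log2 RPKM was 0 or more (an RPKM, or reads per kilobase of gene scaled to library depth, of at least 1) in at least 3 of those 6. That minimum kept 14006 of 18546 genes and left out 4540. The other 6 libraries, 3 of NrasG12D/+ and 3 of Tet2+/-, are shown beside them and share in the estimate of the spread. All mice were C57BL/6 and 10 to 12 weeks old. The cells were sorted from bone marrow by the SLAM scheme, CD150+CD48-Lin-Sca1+cKit+, and their total RNA was depleted of ribosomal and mitochondrial RNA. The labels name no Cre driver and no part of Tet2 that was deleted. The series counts 3 mice per genotype and does not say whether a library pools mice, so the p-values measure the spread between these libraries.

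Nras is a small GTPase that passes signals from cytokine and growth factor receptors to the RAF, MEK and ERK kinases and to PI3 kinase, and the G12D change slows the hydrolysis of its bound GTP. TET2 oxidizes 5-methylcytosine, a step towards removal of DNA methylation, and its loss is known to favour self-renewal of blood stem cells. Most HSCs of an adult mouse are out of the cell cycle. The series' title places the compound mutant before leukemia, so the comparison asks how the RNA of stem cells with both lesions differs from that of normal stem cells at that stage.

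Reads in genes ranged from 19205045 to 34631653 in the wild-type libraries and from 20935368 to 33941484 in the compound libraries. Wild-type library 1 was the shallowest of the 12 and had the most genes at 0 reads, 3824, and wild-type library 2 had the fewest, 1000. By Xist and Y-linked genes, library 1 was male and libraries 2 and 3 were female in both groups, so sex is balanced between them. NrasG12D/+ had the same order. Tet2+/- library 3 was male, so comparisons that use Tet2+/- are not balanced for sex.

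RNA of the gate's positive markers was present. Of 43 HSC identity genes, 42 had a row and all 42 reached the minimum. Kit, the gate's stem cell factor receptor, stood at 67.2, 68.2 and 64.7 RPKM in wild type and at 85.9, 82.4 and 76.4 RPKM in the compound mutant. Mean RPKM of Slamf1, which encodes CD150, was 7.99 in wild type and 5.19 in the compound mutant. Cd48, whose product the gate excludes, had 0 reads in all 3 wild-type libraries and in compound libraries 1 and 2, and 2 reads in compound library 3. Of lineage markers, 1 of 12 B cell markers, 2 of 14 T and NK cell markers, 1 of 12 mature granulocyte markers and 2 of 13 granulocyte-monocyte progenitor markers reached the minimum. In the last list Elane and Cebpe had 0 reads in all 6 libraries. More was detected of other lineages, with 10 of 14 megakaryocyte, 7 of 15 erythroid and 3 of 12 monocyte and macrophage markers at the minimum. The erythroid sum of 179 to 187 RPKM in wild type and 153 to 189 RPKM in the compound mutant was mostly Car2 (means of 163 and 153 RPKM). The monocyte sum of 90.6 to 107 RPKM and 89.3 to 114 RPKM was mostly Lyz2 (90.9 and 95.8 RPKM).

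The targeted genes came first as a check of the labels. Nras was at 5.66, 6.13 and 4.95 RPKM in wild type and 6.83, 5.10 and 6.78 RPKM in the compound mutant, a log2 difference of 0.15 ± 0.20 (SE). Tet2 was at 4.93, 4.94 and 4.98 RPKM in wild type and 4.50, 5.67 and 4.76 RPKM in the compound mutant. The Tet2 groups overlap, and neither gene-level value separates the genotypes. G12D is a base change in an expressed gene, and a deletion of part of Tet2 need not lower the reads of the whole gene, so these values do not check the labels.

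Between compound mutant and wild type, 1 of the 14006 tested genes passed an adjusted p of 0.05 (limma, Benjamini-Hochberg), 0.00714% of them. At unadjusted p under 0.05, 492 genes (3.51%) were higher and 430 (3.07%) were lower in the compound mutant. In 901 genes (6.43%) all 3 compound libraries lay above all 3 wild-type libraries, and in 720 (5.14%) all lay below. The median log2 difference over all tested genes was 0.019, and 7285 of them were above 0. The genes named below had the smallest p among genes whose groups do not overlap, or belong to a named list, and apart from 1600002K03Rik none passed the adjusted test. Without wild-type library 2 the count past the adjusted threshold was 13, all higher, and 807 genes were higher at unadjusted p under 0.05. Without compound library 3 the adjusted count was 6, of which 2 were higher, and without compound library 1 it was 2.

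**Figure D1:**
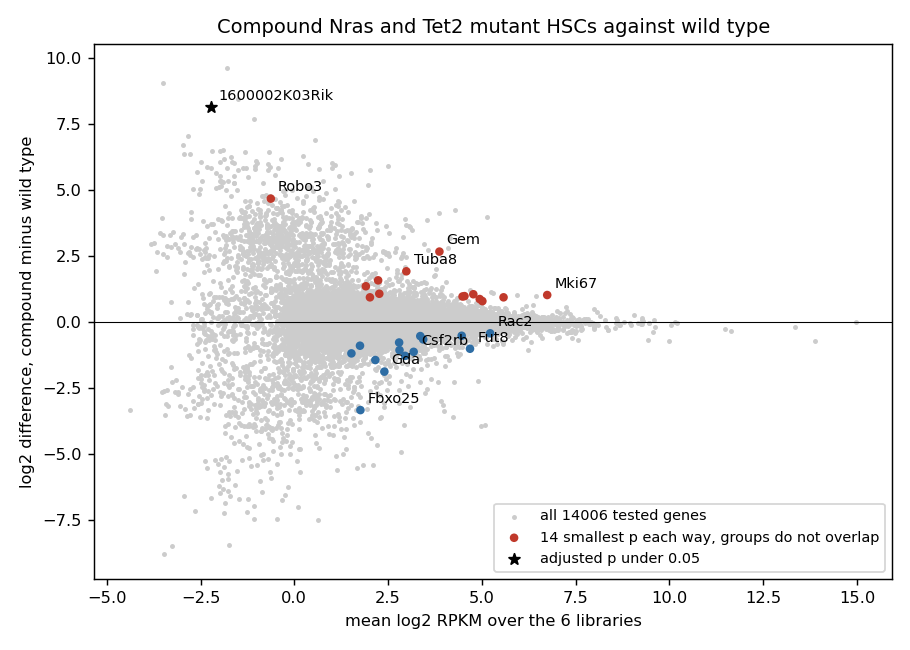
Each point is 1 tested gene, with the mean log2 RPKM over the 6 libraries on the x axis and the log2 difference, compound minus wild type, on the y axis. The star is 1600002K03Rik, the 1 gene past the adjusted threshold. Red and blue points are the 14 higher and 14 lower genes with the smallest p among genes whose groups do not overlap. The scatter is widest among genes with few reads.

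1600002K03Rik, a protein-coding gene of unassigned name at chr10:80172944-80175146 on the plus strand (GENCODE M21, GRCm38) between Cirbp and Efna2, was the gene called. It had 0 reads in each wild-type library and 49, 79 and 76 reads in the compound libraries, or 3.43, 3.45 and 3.86 RPKM. Against a floor of 3 reads over the wild-type group the compound level was at least 64.3-fold higher, and the adjusted p was 0.00123 (limma). The gene met the minimum only through the compound libraries, and with every gene of the table tested the adjusted p was 0.00196 (limma). The fitted difference rests on the prior that stands in for 0 reads. All libraries of the single mutants had reads too, with means of 5.88 RPKM in NrasG12D/+ and 3.35 RPKM in Tet2+/-. The call was lost with only the 6 libraries in the fit (adjusted p = 0.882, limma), on log2(RPKM + 0.5) (0.0808), after quantile normalization (0.358) and with voom on recovered reads (0.574).

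Gem had the smallest p of the genes measured well in both groups. Its product belongs to the RGK group of Ras-related GTPases and inhibits voltage-gated calcium channels. Gem stood at 5.76, 7.05 and 4.82 RPKM in wild type and at 46.4, 38.3 and 28.0 RPKM in the compound mutant. The lowest compound library was far above the highest wild-type library. The log2 difference was 2.66 ± 0.33 (SE), with a 95% interval of 1.94 to 3.39, and the adjusted p of 0.0652 (limma) missed the threshold. It passed without wild-type library 2 (0.0363) and without compound library 3 (0.0471), and ranged up to 0.343 without wild-type library 1.

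The single mutants place Gem further. The Tet2+/- libraries stood at 3.23, 3.39 and 5.95 RPKM, near wild type, and the NrasG12D/+ libraries at 30.8, 55.1 and 27.2 RPKM, in the range of the compound mutant. The compound mutant exceeded Tet2+/- by 3.19 ± 0.33 (SE) on the log2 scale with an adjusted p of 0.0254 (limma), the 1 gene of 14006 (0.00714%) past the threshold in that comparison. That call was lost under the replicate block (adjusted p = 0.177, limma), without a variance trend (0.0788), with voom (0.072), and without compound library 1 (0.11), compound library 2 (0.174), wild-type library 2 (0.0603) or wild-type library 3 (0.0615). From NrasG12D/+ the compound mutant differed by 0.04 ± 0.33 (SE), with an interval of -0.69 to 0.76, so a difference of that size in either direction is within the error. Of 4 RGK genes Rrad was the other one in the table. It was at 6.38 and 3.36 RPKM in wild-type libraries 1 and 2, with 0 reads in library 3, and at 2.86, 1.75 and 2.08 RPKM in the compound mutant, so its groups overlap.

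Several genes of transport, receptors and chromatin showed the same separation at lower fold. Slc22a3, an organic cation transporter that takes up monoamines, was at 20.2, 19.8 and 17.1 RPKM in wild type and 41.9, 31.3 and 46.4 RPKM in the compound mutant. Its groups do not overlap, the log2 difference was 1.05 ± 0.16 (SE), and the adjusted p was 0.175 (limma). H1f0, the linker histone of differentiated and resting cells, was at 37.7, 39.9 and 27.5 RPKM in wild type and 63.0, 70.7 and 64.7 RPKM in the compound mutant. F2r, the thrombin receptor PAR1, averaged 25.2 RPKM in wild type and 42.7 RPKM in the compound mutant. Crbn, the substrate receptor of a ubiquitin ligase bound by thalidomide, averaged 2.44 and 6.03 RPKM, and the alpha-tubulin Tuba8 4.37 and 15.6 RPKM.

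Robo3, a receptor of the Roundabout family known from axon guidance, was lower in wild type. It stood at 0.149, 0.194 and 0.0737 RPKM there, on 61, 99 and 52 reads, and at 3.50, 3.25 and 3.06 RPKM in the compound mutant, on 1520, 2258 and 1830 reads. The 3 compound values are tight and lie far above wild type. The log2 difference was 4.67 ± 0.68 (SE), with an adjusted p of 0.175 (limma). Robo3 met the minimum only through the compound libraries, so its place among the tested genes already needed a high compound level. Robo3 was at 1.85, 1.42 and 2.67 RPKM in NrasG12D/+ and at 0.638, 0.446 and 0.180 RPKM in Tet2+/-.

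**Figure D2:**
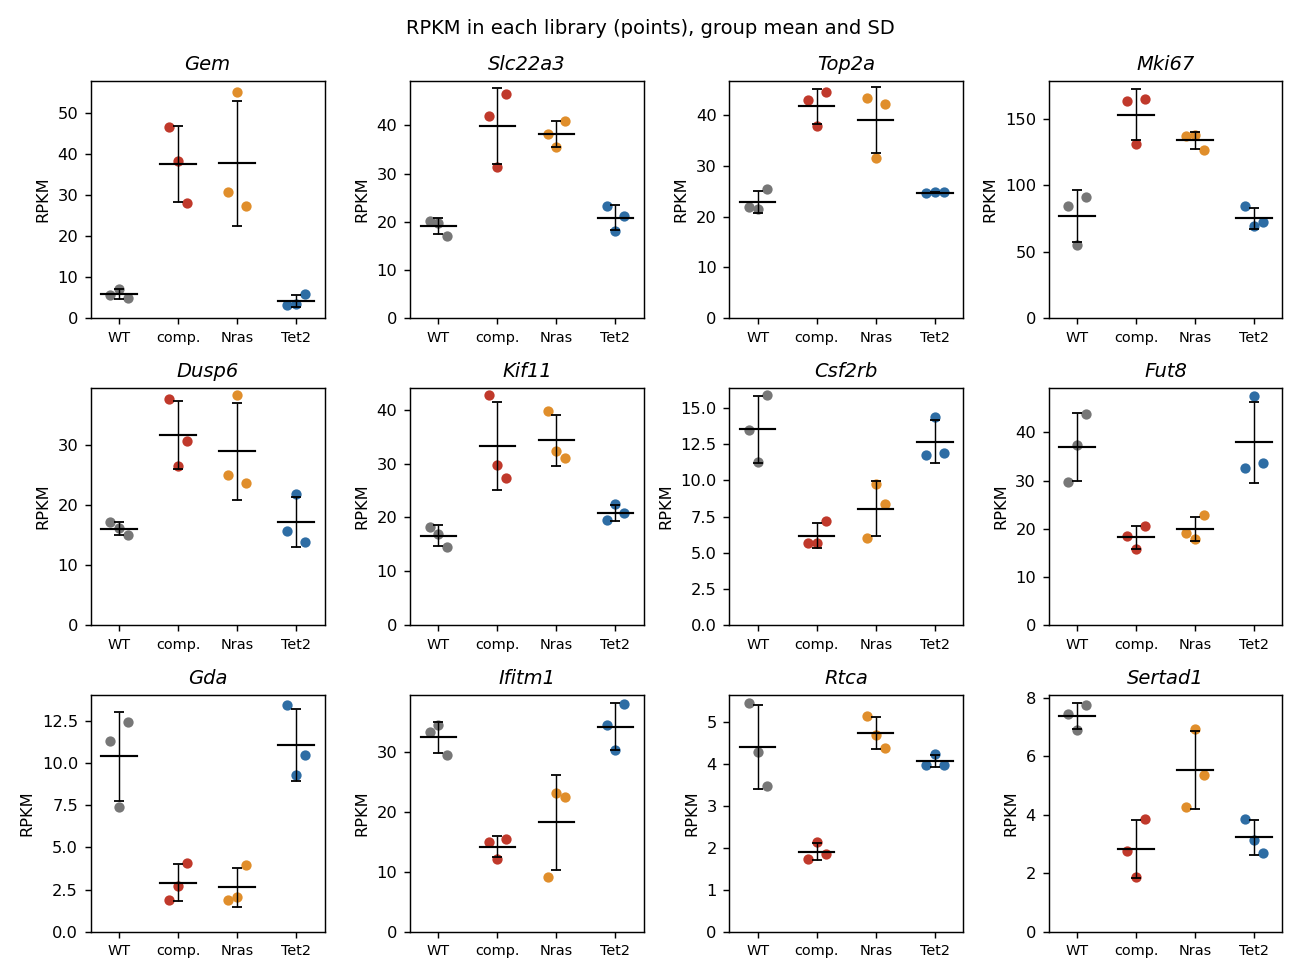
RPKM (y axis, from 0) of 12 genes in each library of wild type (WT), compound (comp.), NrasG12D/+ (Nras) and Tet2+/- (Tet2), with the group mean and SD as lines, n = 3 each. In all 12 genes the compound points and the wild-type points do not overlap. Rtca is low in the compound libraries, which lie between 1.75 and 2.13 RPKM, while its NrasG12D/+ libraries lie between 4.39 and 5.14 RPKM.

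Of the 32 gene lists, that of mitosis was the largest, and it had the most members higher at unadjusted p under 0.05. This list of 58 genes of the G2 phase and mitosis had 56 tested members, of which 52 were above 0, 17 were higher and 0 lower at unadjusted p under 0.05, and 18 had all compound libraries above all wild-type libraries, while 0 had them below. None passed the adjusted test. The median log2 difference was 0.60, beside 0.019 over all tested genes, and the shares of genes called over all genes are the 3.51% and 6.43% given above. Summed RPKM of the list was 530.4, 376.2 and 520.7 in wild type and 734.5, 649.3 and 746.2 in the compound mutant, so the sums do not overlap. In bulk RNA, more cells in mitosis and more of these RNAs per cell cannot be told apart. Wild-type library 2, the lowest in the sum, mattered: without it the median was 0.402.

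Mitotic genes are known to share promoter elements: the CCAAT box, bound by NF-Y, and the cell cycle homology region (CHR), bound by the DREAM and B-MYB-MuvB complexes, which hold these genes off in resting cells and turn them on in G2. The promoter windows of the 4 mitotic genes with the smallest p are shown, 250 bases before the RefSeq start on the gene's strand (RefSeq, GRCm38.p6). Capitals mark the CCAAT box on either strand, where ATTGG is its reverse reading. They also mark the CHR element, searched as TTTGAA with its reverse, and its variant form TTCGAA, which reads the same on both strands.
Top2a, chr11:99024190-99024439, minus strand: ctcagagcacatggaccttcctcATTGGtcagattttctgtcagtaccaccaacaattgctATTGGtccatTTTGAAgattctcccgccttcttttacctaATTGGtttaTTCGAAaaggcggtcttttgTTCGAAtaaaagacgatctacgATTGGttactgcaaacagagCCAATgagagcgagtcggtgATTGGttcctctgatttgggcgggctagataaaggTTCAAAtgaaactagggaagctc
Mki67, chr7:135716380-135716629, minus strand: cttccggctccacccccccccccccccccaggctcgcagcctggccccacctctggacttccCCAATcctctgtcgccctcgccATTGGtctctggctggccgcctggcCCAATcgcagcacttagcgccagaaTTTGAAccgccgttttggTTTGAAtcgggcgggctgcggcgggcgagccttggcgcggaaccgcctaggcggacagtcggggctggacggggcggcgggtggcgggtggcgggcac
Kif11, chr19:37376132-37376381, plus strand: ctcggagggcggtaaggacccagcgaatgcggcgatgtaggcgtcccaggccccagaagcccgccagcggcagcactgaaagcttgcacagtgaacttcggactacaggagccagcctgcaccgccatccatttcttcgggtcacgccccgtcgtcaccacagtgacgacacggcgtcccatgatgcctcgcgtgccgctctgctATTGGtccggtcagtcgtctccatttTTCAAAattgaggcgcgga
Aspm, chr1:139454523-139454772, plus strand: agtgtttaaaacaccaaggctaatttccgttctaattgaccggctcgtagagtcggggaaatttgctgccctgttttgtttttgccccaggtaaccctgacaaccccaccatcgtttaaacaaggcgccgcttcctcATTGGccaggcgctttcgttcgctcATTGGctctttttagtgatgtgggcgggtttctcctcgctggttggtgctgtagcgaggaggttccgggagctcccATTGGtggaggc

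All 4 windows hold at least 1 CCAAT, with 6 in Top2a, 3 in Mki67, 1 in Kif11 and 3 in Aspm. TTTGAA occurs 2 times in Top2a, 2 times in Mki67 and 1 time in Kif11, and Aspm has neither CHR form in this window. Over the list, 50 of the 58 genes matched 53 RefSeq promoters. CCAAT occurred in 40 of the 53 windows (75.5%), beside 33.8% of all 32851 windows in the table, and TTTGAA in 22 (41.5%), beside 16% of all. TTCGAA occurred in 2 (3.77%), beside 1.34%. In the other lists searched, CCAAT ranged from 40.9% of windows (ERK output and feedback) to 65.9% (unfolded protein and integrated stress responses), with 58.1% in DNA replication. TTTGAA ranged there from 7.32% (unfolded protein and integrated stress responses) to 14% (DNA replication). All of these are matches of letters. Only 8736 of the 14006 tested genes matched a promoter. CCAAT occurred in 35.8% of the windows of tested genes and TTTGAA in 10.9%. Among genes without overlap the 2 shares were 35.9% and 13.9% for higher and 34.7% and 10.4% for lower genes. At unadjusted p under 0.05 they were 40.9% and 16.6% for higher and 34.8% and 11.2% for lower genes. These shares were not tested.

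Top2a, the topoisomerase that untangles chromosomes before they part, was at 21.8, 21.4 and 25.3 RPKM in wild type and 42.9, 37.8 and 44.4 RPKM in the compound mutant. The groups are clearly apart, with a log2 difference of 0.87 ± 0.13 (SE) and an adjusted p of 0.175 (limma). Mki67, the nuclear antigen used to stain cycling cells, was at 84.6, 54.9 and 91.6 RPKM in wild type and 164, 131 and 165 RPKM in the compound mutant, a log2 difference of 1.02 ± 0.18 (SE). Here wild-type library 2 is the lowest of the 6. Kif11, the kinesin that pushes spindle poles apart, was at 18.3, 17 and 14.6 RPKM in wild type and 42.7, 29.8 and 27.3 RPKM in the compound mutant. Aspm, a spindle pole protein, was at 5.65, 4.14 and 3.88 RPKM and at 8.21, 6.72 and 8.21 RPKM.

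By role, all 12 tested kinesins were above 0, with a median log2 difference of 0.67 and 5 of them at unadjusted p under 0.05. Kif18a, which damps chromosome movement, had a difference of 1.46, Kif22 of 1.04 and Kif4 of 0.80. All 24 genes of spindle, kinetochore and chromosome structure were above 0, with 8 at unadjusted p under 0.05 and 11 whose groups do not overlap. Among them were Ncaph of the condensin complex (1.22), Hmmr (0.84) and Incenp of the chromosomal passenger complex (0.58). Among the 12 mitotic kinases and cyclins 11 were above 0, with Cdk1, the kinase that drives entry into mitosis, at 0.93 and Melk at 1.06. Plk1 was the exception at -0.69, with a wide interval. Genes of mitotic exit were mixed: 5 of 8 were above 0, Mad2l1 of the spindle checkpoint stood at 1.15, and Cdc25b (-0.24), Fzr1 (-0.25) and Bub3 (-0.16) were below 0.

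Other mitotic genes came up outside the list. Prr11 was at 2.69, 2.02 and 3.72 RPKM in wild type and 7.59, 7.04 and 10.0 RPKM in the compound mutant. Casc5, the kinetochore scaffold also named Knl1, averaged 3.40 and 7 RPKM. Foxm1, the transcription factor that works with B-MYB on mitotic genes, was at 3.54, 2.37 and 2.99 RPKM in wild type and 5.70, 5.31 and 5.78 RPKM in the compound mutant, and its groups do not overlap.

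**Figure D3:**
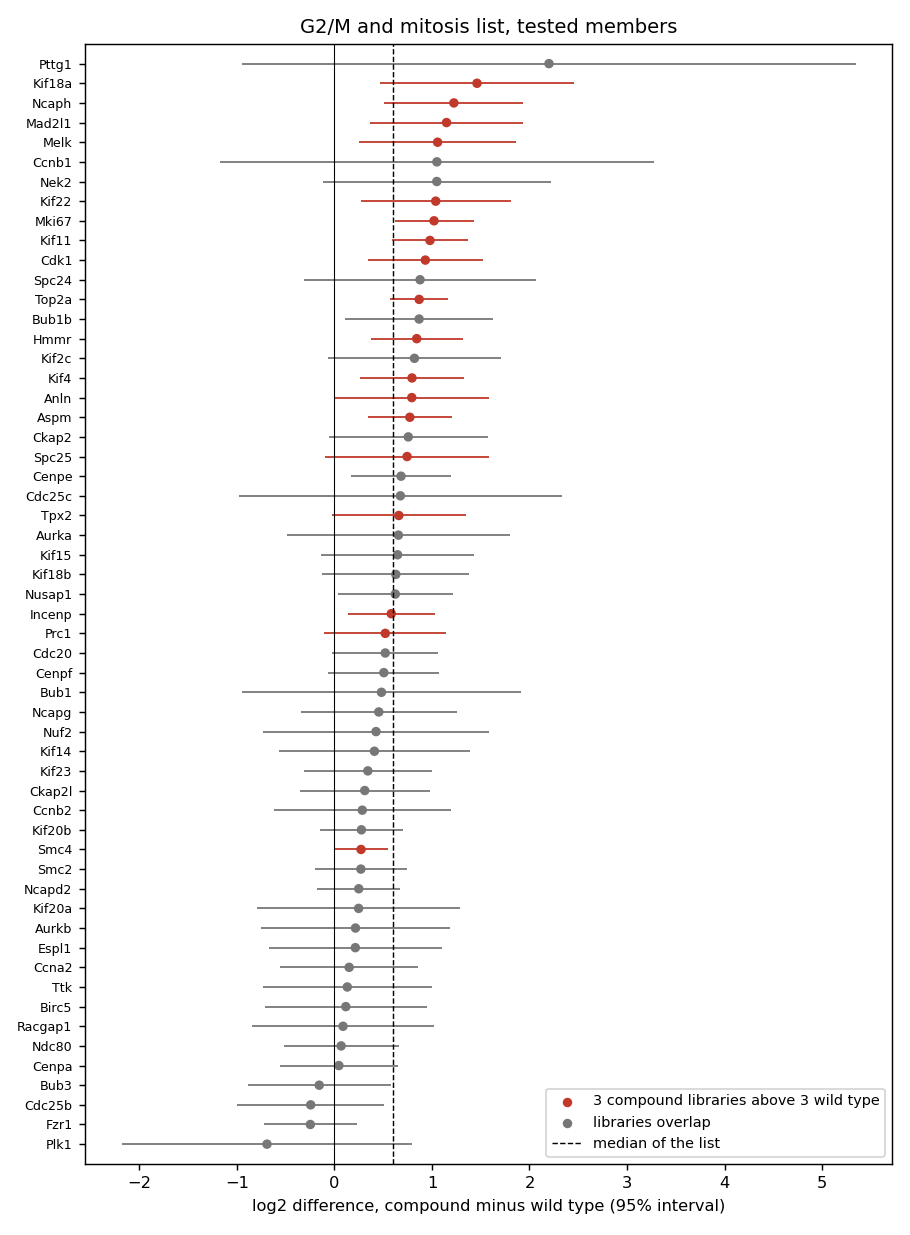
The 56 tested members of the mitosis list, with the log2 difference, compound minus wild type, on the x axis and its 95% interval as a line. Red marks genes whose 3 compound libraries lie above the 3 wild-type libraries (18 genes), and the dashed line is the list's median of 0.60. Members below 0 are Plk1, Fzr1, Cdc25b and Bub3.

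Genes of DNA synthesis had a lower median. Of 44 tested replication genes 37 were above 0, and the median was 0.33. At unadjusted p under 0.05, 5 were higher and 0 lower, beside 3.51% and 3.07% of all tested genes. None passed the adjusted test. The licensing and helicase genes had the lowest median, 0.16, with 0 of 16 at unadjusted p under 0.05. The highest-ranked members were Brca1, a DNA repair gene (3.71, 3.37 and 4.40 RPKM in wild type, 7.73, 4.39 and 7.44 RPKM in the compound mutant), and Pola1, the primase-associated polymerase (12.0 and 16.4 RPKM on average), and both overlap between groups. In 5 other members, Mcm7, Prim1, Pold1, Pole and E2f7, the compound libraries lay above all wild-type libraries, beside 6.43% of all tested genes. E2f7, a repressor of the E2F family, was at 0.947, 0.986 and 1.97 RPKM and at 2.67, 2.76 and 2.01 RPKM, and Pole, the leading-strand polymerase, at 9.44, 7.43 and 8.62 RPKM and at 12.9, 9.68 and 10.7 RPKM. Summed RPKM of the list was 423.4 to 539.3 in wild type and 499.1 to 605.2 in the compound mutant, which overlap. Without wild-type library 2 the median was 0.174.

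Of 30 tested replication-dependent histone genes 23 were above 0, with a median of 0.34. At unadjusted p under 0.05, 9 were higher and 1 was lower, beside 3.51% and 3.07% of all tested genes. Hist1h1c, a linker histone, was at 135, 112 and 127 RPKM in wild type and 179, 212 and 164 RPKM in the compound mutant, and Hist1h2ac at 19.2, 16.4 and 21.5 RPKM and 34.6, 33.4 and 31.1 RPKM. Both are free of overlap. Hist1h4c was the lower one, with a log2 difference of -2.60. These genes have near-identical copies, between which the counting may divide reads, so single members are uncertain. The summed RPKM was 861.9 to 1266 in wild type and 1348 to 1635 in the compound mutant, and the median was 0.165 without wild-type library 2.

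The list of D cyclins and CDK inhibitors holds genes that set entry into the cell cycle. Of its 13 tested members 2 were higher and 0 lower at unadjusted p under 0.05, beside 3.51% and 3.07% of all tested genes. Cdk6, the G1 kinase that sets how readily an HSC leaves rest, was at 25.6, 25.8 and 20.7 RPKM in wild type and 39.3, 27.8 and 43.3 RPKM in the compound mutant. Ccnd1, a cyclin partner of Cdk6, was at 10.5, 14.7 and 9.89 RPKM and 20.2, 17.4 and 19.9 RPKM. In both genes the groups do not overlap. The other D cyclins were below 0. Ccnd2 averaged 48.6 RPKM in wild type and 40.4 RPKM in the compound mutant (log2 difference -0.27), with overlap. Ccnd3 averaged 6.12 and 5.36 RPKM (-0.20), without overlap. Neither was at unadjusted p under 0.05. The 7 tested inhibitors of the cycle were Cdkn1b, Cdkn1c, Cdkn2c, Cdkn2d and the retinoblastoma family genes Rb1, Rbl1 and Rbl2. Of these 0 were at unadjusted p under 0.05 in either direction, and Cdkn1a was below the minimum.

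The list of ERK output and feedback split by member. It holds phosphatases and Sprouty and Spred genes, which damp this signalling, and ETS factors and targets, which make up 7 of the 20 tested genes. Of 20 tested genes 4 were higher and 0 lower at unadjusted p under 0.05, beside 3.51% and 3.07% of all, 6 had no overlap upwards, beside 6.43%, and 10 were above 0 and 10 below, with a median of 0.02. Dusp6, the phosphatase that removes phosphate from ERK, was at 17.1, 16.1 and 15 RPKM in wild type and 37.7, 26.5 and 30.7 RPKM in the compound mutant, a log2 difference of 0.96 ± 0.22 (SE). Dusp4, a nuclear ERK phosphatase, was at 1.24, 4.17 and 7.24 RPKM and at 13.4, 14.1 and 12.0 RPKM. Its compound values are tight and its wild-type values spread widely. Etv5, an ETS factor downstream of ERK, was at 1.48, 3.87 and 4.84 RPKM and at 8.38, 7.35 and 6.39 RPKM. Spred1, which inhibits Ras activation, was at 23.7, 24.1 and 25.4 RPKM and at 27.4, 30.9 and 28.2 RPKM. The lowest of the 10 members below 0 were Dusp2 (-1.06), Dusp10 (-0.77), Spry1 (-0.68), Dusp5 (-0.59) and Spry2 (-0.55). None of the 10 was at unadjusted p under 0.05. Unlike Spry1 and Spry2, Spry4 was higher without overlap, averaging 1.055 RPKM in wild type and 3.34 RPKM in the compound mutant. Without wild-type library 1, in which Dusp4 and Etv5 were lowest, the list's median was -0.234.

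Of 34 tested components of the Ras pathway 0 were higher and 3 lower at unadjusted p under 0.05, beside 3.51% and 3.07% of all tested genes, with a median of 0.03. Pik3cd, the PI3 kinase subunit of blood cells, was at 6.91, 8.53 and 12.4 RPKM in wild type and 4.12, 4.88 and 5.57 RPKM in the compound mutant, without overlap. Map2k1, which encodes MEK1, was at 7.29, 11.2 and 11.1 RPKM and at 3.95, 4.85 and 7.96 RPKM, and Akt1 averaged 26.9 and 21.4 RPKM.

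Among the lower genes Csf2rb had the smallest p. It encodes the beta chain shared by the receptors for GM-CSF, IL-3 and IL-5. It stood at 13.5, 11.3 and 15.9 RPKM in wild type and 5.71, 5.64 and 7.19 RPKM in the compound mutant. The groups are well apart, the log2 difference was -1.13 ± 0.21 (SE), and the adjusted p was 0.38 (limma). Its close copy Csf2rb2, the mouse IL-3 specific chain, was at 3.59, 7.92 and 7.04 RPKM and at 3.86, 6.23 and 5.73 RPKM, and reads may be divided between the copies. Of 20 tested cytokine receptors, 1 was higher (Kit) and 2 lower (Csf2rb among them) at unadjusted p under 0.05. Over all tested genes the shares were 3.51% and 3.07%.

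These receptors signal through STAT5, which turns on Cish, Socs2 and the Pim kinases. All 18 genes of the STAT5, SOCS and PIM list were tested, and 4 were lower and 0 higher at unadjusted p under 0.05, beside 3.07% and 3.51% of all genes, with a median of -0.17. None passed the adjusted test. Pim1 was at 75.0, 92.4 and 187 RPKM in wild type and 40.4, 58.4 and 61.3 RPKM in the compound mutant. Pim2 was at 4.91, 4.89 and 5.15 RPKM and at 3.29, 1.44 and 3.23 RPKM. Socs2, an inhibitor of JAK and STAT signalling, was at 1.76, 1.33 and 1.66 RPKM and at 0.588, 0.443 and 0.296 RPKM. Socs2 met the minimum only through the wild-type libraries, so its place among the tested genes already needed a high wild-type level. Pim1, Pim2 and Socs2 do not overlap between groups, whereas Cish overlaps (4.55, 5.66 and 8.15 RPKM, then 2.17, 3.27 and 5 RPKM). Pim3 went the other way, averaging 4.64 RPKM in wild type and 8.01 RPKM in the compound mutant (log2 difference 1.24). Of the 18 genes 13 were below 0 and 5 above. Among the latter Socs1 (2.81) and Osm (1.15) were at low levels, with intervals of -2.69 to 8.31 and -4.18 to 6.47. Socs1 averaged 0.566 RPKM in wild type and 1.47 RPKM in the compound mutant. Osm averaged 1.02 and 0.578 RPKM, so its mean RPKM was lower in the compound mutant although its log2 difference was above 0. Stat5a (-0.16) and Stat5b (-0.07) themselves were near 0.

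Other lower genes with small p had varied roles. Fut8, the enzyme that adds core fucose to N-glycans, was at 29.8, 37.4 and 43.7 RPKM in wild type and 18.4, 15.7 and 20.6 RPKM in the compound mutant, a log2 difference of -1.01 ± 0.19 (SE). Gda, guanine deaminase of purine breakdown, was at 11.3, 7.38 and 12.4 RPKM and at 1.91, 2.69 and 4.07 RPKM, a difference of -1.88 ± 0.37 (SE). Both are free of overlap by a wide margin. Rac2, the small GTPase of blood cells needed for HSC retention, was at 45.0, 39.8 and 45.1 RPKM and at 31.6, 34.7 and 30.3 RPKM, a small but even difference of -0.43 ± 0.09 (SE). Arpc1b, a subunit of the actin-branching Arp2/3 complex, averaged 12.4 and 8.54 RPKM, and Psme1, an activator subunit of the immunoproteasome, 26.5 and 18.4 RPKM. Epb4.1l4b averaged 10.1 and 4.89 RPKM, Zdhhc8, a palmitoyltransferase, 9.11 and 5.39 RPKM, and Plxdc2 13.7 and 8.65 RPKM.

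Of 42 tested HSC identity genes 3 were higher and 4 lower at unadjusted p under 0.05, beside 3.51% and 3.07% of all tested genes, with a median of -0.08. None passed the adjusted test. Ifitm1, an interferon-induced membrane protein present in HSCs at rest, was at 33.4, 34.6 and 29.5 RPKM in wild type and 15, 12.2 and 15.5 RPKM in the compound mutant, a log2 difference of -1.20 ± 0.31 (SE). Fgd5, a gene used to mark HSCs, was at 11.4, 15.2 and 11.2 RPKM and at 6.64, 8.70 and 5.52 RPKM, and the factor Nfix at 20.1, 15 and 15.4 RPKM and at 12.2, 11.5 and 13.1 RPKM. Angpt1, a ligand of the Tie2 receptor, was at 205, 276 and 235 RPKM and at 325, 298 and 306 RPKM, and Gata2 had a log2 difference of 0.34. Most factors of stem cell identity were near 0, among them Mecom (-0.12), Hlf (-0.21) and Meis1 (0.13).

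Of 41 tested genes of the unfolded protein and integrated stress responses 32 were below 0 and 9 above, with a median of -0.17. At unadjusted p under 0.05, 3 were lower and 1 higher, beside 3.07% and 3.51% of all tested genes. None passed the adjusted test. Of the chaperones and folding enzymes of the endoplasmic reticulum, 15 of 16 were below 0 with a median of -0.25, and in 4 of them (Pdia6, Calr, Hyou1 and Creld2) the groups do not overlap, beside 5.14% of all tested genes, though none was at unadjusted p under 0.05. Asns, asparagine synthetase and a target of ATF4, was at 3.04, 2.13 and 2.54 RPKM in wild type and 1.39, 0.909 and 1.41 RPKM in the compound mutant. Xbp1, the spliced factor of the unfolded protein response, was at 12.1, 15.6 and 20.1 RPKM and at 8.31, 12.5 and 8.40 RPKM, which overlap. Shmt2, a mitochondrial enzyme of one-carbon metabolism, went the other way at 24.7, 22.6 and 24.9 RPKM and 29.5, 36.5 and 34.3 RPKM. The summed level was 844.3 to 948.3 RPKM in wild type and 753.5 to 813.9 RPKM in the compound mutant.

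Glycolysis had 0 higher and 3 lower of 24 tested genes at unadjusted p under 0.05, beside 3.51% and 3.07% of all. The list's median was -0.17. Aldoa, aldolase A, was at 17.3, 14.8 and 15.3 RPKM in wild type and 12.7, 11.4 and 12.0 RPKM in the compound mutant, and Gpi1, glucose phosphate isomerase, at 31.6, 27.3 and 31.3 RPKM and at 25.5, 24.2 and 24.7 RPKM. Hk3, a hexokinase, averaged 4.07 and 1.72 RPKM. The summed RPKM was 317.3 to 375.7 in wild type and 279.2 to 304.2 in the compound mutant. Of 27 genes of Myc and ribosome biogenesis 0 were higher and 2 lower (Nop2 and Mycn), beside the same shares of all genes. The median was -0.10, and Myc itself was at 7.24, 5.32 and 8.66 RPKM and at 3.99, 5.40 and 5.61 RPKM.

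**Figure D4:**
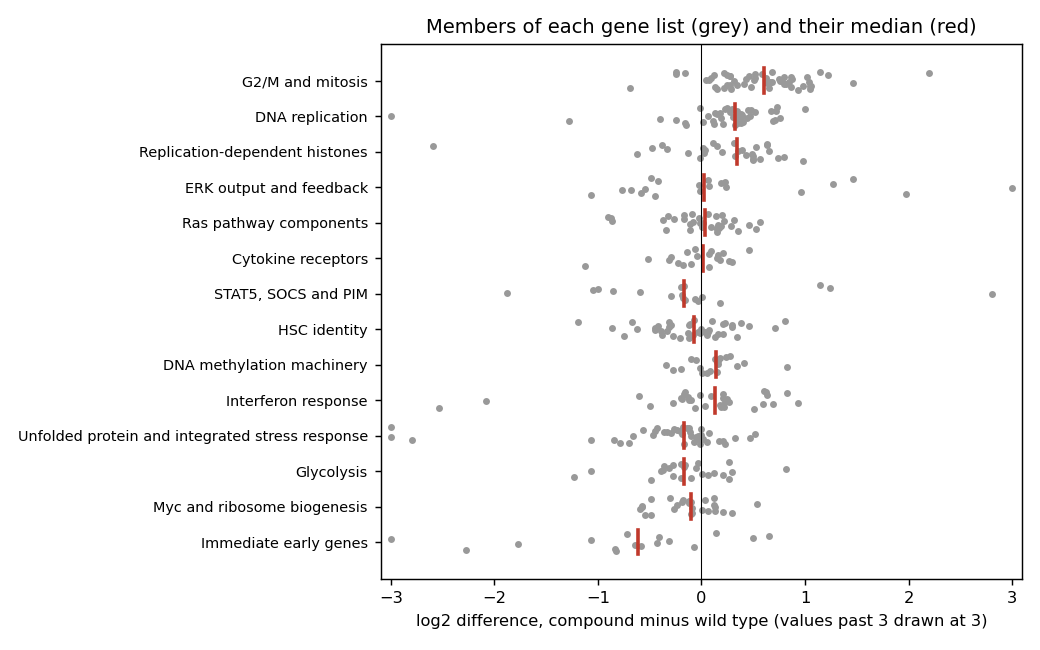
Each grey point is a tested member of the list named on the y axis, placed by its log2 difference, compound minus wild type, and each red line is the list's median. Points past 3 are drawn at 3. The mitosis list has the highest median of the 14 lists shown, 0.60, and the immediate early genes the lowest, -0.61.

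The immediate early genes, which cells turn on within minutes of stimulation or handling, had the lowest median, -0.61, with 13 of 16 tested members below 0. Yet 0 were at unadjusted p under 0.05 in either direction, and 0 had groups without overlap. In every genotype library 2 had the highest sum. Egr1 was at 12.9, 46.8 and 11.5 RPKM in wild-type libraries 1, 2 and 3 and at 1.57, 38.1 and 2.91 RPKM in the compound libraries. Library 2 was also the highest in NrasG12D/+ (0.824, 35.5 and 5.90 RPKM) and Tet2+/- (4.47, 50.8 and 14 RPKM). The summed RPKM of the list was 896.9, 761.7, 858.4 and 968.1 in the libraries numbered 2 of wild type, compound, NrasG12D/+ and Tet2+/-, and between 116.4 and 398.9 in the other 8. Between libraries of the same number the compound sum was the lower each time, at 156.6 against 222.6, 761.7 against 896.9 and 217.8 against 356.4. Without wild-type library 2 the median was -0.0929, and without compound library 2 it was -1.2. Some feedback genes of ERK are also immediate early genes, and the part of this pattern in their values was not tested.

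**Figure D5:**
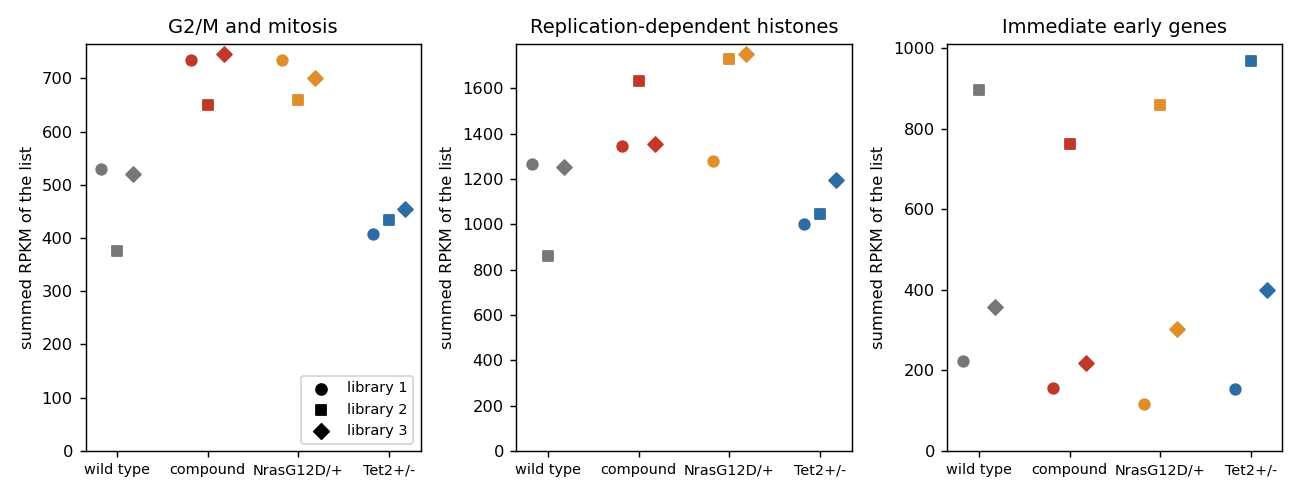
Summed RPKM (y axis, from 0) of 3 gene lists in each library, with the marker shape giving the library number and the colour the genotype. The compound libraries lie above the wild-type libraries for mitosis and histones. For immediate early genes library 2 is highest in each of the 4 genotypes.

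The 3 comparisons of a mutant with wild type use the same wild-type libraries, so the single mutants are set beside the compound mutant by their own values. The median log2 difference of the mitosis list from wild type was 0.49 in NrasG12D/+ and -0.17 in Tet2+/-. Top2a was at 43.3, 31.6 and 42.1 RPKM in NrasG12D/+ and at 24.6, 24.9 and 24.8 RPKM in Tet2+/-. Fut8 was at 19.2, 17.9 and 22.8 RPKM and at 32.6, 47.7 and 33.7 RPKM, and Gda at 1.89, 2.05 and 3.94 RPKM and at 13.4, 9.28 and 10.5 RPKM. In these genes the NrasG12D/+ libraries lie near the compound ones and the Tet2+/- libraries near wild type. Tested directly, the compound mutant differed from NrasG12D/+ in 0 of 14006 genes (0%) at an adjusted p of 0.05 with limma, and in 0 with voom, while 551 (3.93%) were at unadjusted p under 0.05. Leaving out single libraries gave up to 4 such genes (without compound library 3). The intervals of the compound minus NrasG12D/+ difference were -0.19 to 0.40 for Top2a, -0.31 to 0.39 for Slc22a3, -0.56 to 0.29 for Fut8 and -0.66 to 0.96 for Gda.

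A few of the lower genes looked otherwise. Rtca, the RNA 3'-terminal phosphate cyclase, was at 5.47, 4.28 and 3.48 RPKM in wild type and 1.75, 2.13 and 1.85 RPKM in the compound mutant, but at 5.14, 4.69 and 4.39 RPKM in NrasG12D/+ and 3.98, 4.24 and 3.99 RPKM in Tet2+/-. All 3 compound libraries lie below the other 9. The compound minus NrasG12D/+ difference was -1.31 ± 0.22 (SE), with an adjusted p of 0.952 (limma). Rtca lies at chr3:116488963-116508208, on the chromosome of both targeted genes. Adat1, a tRNA adenosine deaminase, was at 2.84, 2.59 and 2.04 RPKM in the compound mutant and between 3.76 and 5.51 RPKM in the other 9 libraries. Fbxo25, a ubiquitin ligase subunit, was at 2.74, 0.225 and 1.99 RPKM in the compound mutant and between 4 and 14.1 RPKM in the others. Sertad1, a partner of CDK4 and of E2F, was at 7.44, 6.90 and 7.77 RPKM in wild type and 2.76, 1.89 and 3.85 RPKM in the compound mutant, with 3.87, 3.12 and 2.70 RPKM in Tet2+/-, and Eid2 averaged 12.2 and 5.15 RPKM.

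The interaction (compound minus NrasG12D/+ minus Tet2+/- plus wild type on the log2 scale) asks whether the alleles together differ from the sum of each alone. It passed the adjusted test in 1 of 14006 genes (0.00714%), again 1600002K03Rik, whose reads are 0 in wild type and present in all 3 mutant genotypes. The next by p among genes with at least 5 RPKM in 1 group did not pass, with adjusted p of 0.99994 (limma) for each. Rwdd2b had an interaction of -1.70 ± 0.34 (SE), from 3.02, 4.47 and 3.52 RPKM in wild type, 5.89, 10.8 and 8.18 RPKM in NrasG12D/+, 7.43, 7.79 and 8.57 RPKM in Tet2+/- and 6.17, 4.92 and 5.27 RPKM in the compound mutant. Each single mutant lies above the compound mutant except for 1 overlap of NrasG12D/+. Zfp820 (-1.66), Csnk2a2 (-1.22) and Rltpr (-0.80) had the same sign, and Fgfr1op2 (0.61), Zfp277 (1.78), Asrgl1 (1.04) and Rnu12 (9.63) the other.

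Both targeted genes lie on chromosome 3. Within 5 Mb of Nras 56 genes were tested, of which 4 were higher and 1 lower at unadjusted p under 0.05 (8.93% together), and 6 higher and 3 lower had no overlap (16.1% together). Within 5 Mb of Tet2 there were 35 tested genes, with 2 higher and 0 lower at unadjusted p under 0.05, (5.71%), and 5 higher and 1 lower without overlap (17.1%). Over all tested genes the shares were 3.51% higher and 3.07% lower at unadjusted p under 0.05, and 6.43% and 5.14% without overlap. None passed the adjusted test in either window. Ptpn22, a tyrosine phosphatase of lymphoid cells 0.802 Mb from Nras, was at 6.14, 5.02 and 5.93 RPKM in wild type and 7.82, 8.63 and 10.1 RPKM in the compound mutant. Gm4540, a processed pseudogene, was at 16.2, 15.3 and 19.3 RPKM and at 5.97, 0.296 and 12.5 RPKM. The others near Nras were Kcna3 (0.77), Ttf2 (0.43) and Wars2 (0.91), and near Tet2 the mitotic kinesin Cenpe (0.68) and Elovl6 (0.40), each given as its log2 difference.

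The other lists held few genes at unadjusted p under 0.05, where the shares of all tested genes were 3.51% higher and 3.07% lower. The DNA methylation machinery had 1 of 20, Mbd1, a methyl-CpG binding protein, at 26.8, 28.2 and 25.1 RPKM in wild type and 38.2, 30.3 and 33.2 RPKM in the compound mutant. Dnmt3a was at 7.56, 7.43 and 7.20 RPKM and at 5.47, 6.19 and 6.76 RPKM, with no overlap. The Hoxa and Hoxb clusters had Hoxa6 higher (14.2, 33.1 and 30.1 RPKM, then 41.0, 57.9 and 37.1 RPKM) and Hoxa4 lower. Interferon response genes had 1 of 32, Usp18, at 4.75, 5.26 and 4.65 RPKM and 5.48, 9.31 and 12.6 RPKM. Inflammation genes of the NF-kB list had 0 of 14. Of p53 targets, Gtse1 averaged 3.76 and 7.80 RPKM and Rrm2b 4.99 and 2.46 RPKM. Of the Bcl2 family, Bcl2 was at 12.0, 12.2 and 13.7 RPKM and at 21.1, 13.9 and 20.1 RPKM. In fucosylation, beside Fut8, Tsta3 was higher (9.32 and 19.1 RPKM on average) and Fuk lower, and among organic cation transporters Slc22a17 was lower (8.22 and 3.98 RPKM on average).

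The largest differences among genes with at least 5 RPKM in 1 group rested on uneven libraries. Prg2, major basic protein of eosinophils, had 0 reads in each wild-type library and 48, 95 and 1381 reads in the compound libraries, so compound library 3 carried most of it. Over the group this is at least 480-fold higher than a floor of 3 reads. Prg2 met the minimum only through the compound libraries. The mast cell, basophil and eosinophil list had 3 of 13 members in the table, and its summed RPKM was 5.438, 4.172 and 62.27 in the compound libraries and 1.555 to 3.955 in wild type. Hbb-bt, a beta globin with a near-identical copy, was at 11.1, 11.2 and 9.48 RPKM in wild type and 0.618, 6.82 and 0.0612 RPKM in the compound mutant. Tespa1, Camkmt and Hrh2 each had at least 1 wild-type library at 0 reads, and Cstb, Dync2li1 and Creld2 each had at least 1 compound library at 0 reads. None of the 8 passed the adjusted test. Some marker lists of other lineages also differed between the groups. Of 10 tested megakaryocyte genes 9 were above 0, with a median of 0.50, and 1 was higher at unadjusted p under 0.05. The list's sums were 50.24 to 60.58 RPKM in wild type and 63.79 to 82.69 RPKM in the compound mutant. Lymphoid-primed progenitor genes had sums of 53.60 to 67.06 RPKM and 68.48 to 90.88 RPKM, with 1 of 5 tested genes higher, beside 3.51% of all. The B cell sum went the other way, at 4.65 to 6.70 RPKM and 3.71 to 4.43 RPKM, with 1 of 12 markers tested. Granulocyte-monocyte progenitor sums overlapped, at 9.24 to 20.1 RPKM and 7.40 to 11.1 RPKM. Whether these lists have a part in the results above was not tested.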

How the data were processed

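Total RNA of 12 libraries was sequenced, and the deposited table holds log2 RPKM per gene, which the authors computed; RPKM is reads per kilobase of gene, scaled to the depth of the library. The submitters' processing notes name CASAVA 1.8.2, TopHat2, edgeR and the mm10 build, with no settings, and the use of strand in counting is not given in the sources used here. Every value of all 18546 genes came out as a whole read number (within 0.001 of a read) once the added prior and the gene length were recovered. For 70.2% of 17294 symbols that length equalled the summed lengths of all annotated transcripts, so RPKM of genes with many transcripts is understated, while differences within a gene are unaffected.

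Groups came from the labels. Genes were tested with limma 3.58.1 (R 4.3.3) on the deposited log2 RPKM, with 4 group means over all 12 libraries, 8 residual degrees of freedom, a variance trend and Benjamini-Hochberg adjustment over the 14006 genes, at a threshold of 0.05. Errors are SE and intervals are 95%. The test was checked on simulated data. Named genes were Nras and Tet2, genes past the threshold, the 14 smallest p each way among non-overlapping genes with a group mean of at least 2 RPKM, the 4 largest differences each way at 5 RPKM, up to 4 smallest p in each list, the 4 smallest interaction p each way, the 3 widest compound ranges at 10 RPKM, and genes at unadjusted p under 0.05 within 5 Mb of Nras or Tet2. Predicted and clone-based names were left out of several of these. Other genes named were chosen after their values were seen. The comparison and the 32 gene lists were chosen with earlier results of these data known. Alternatives changed the filter, the pseudocount, the scaling, the libraries, the block, the variance trend and the weights. voom on the recovered reads was added after seeing the data. Some members of the lists are counted but not reported here by name.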

Additional observations from a re-analysis of the deposited data

Results flagged for a closer look

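1600002K03Rik had an interaction of the alleles of -8.47 on the log2 scale (-8.466 before rounding), with an adjusted p of 0.022 (limma). The interaction term tests whether the difference made by the NrasG12D/+ allele is the same with and without Tet2+/-. The call was lost on log2(RPKM + 0.5) (adjusted p = 0.892, limma), after quantile normalization (1), with the replicate block (0.193), with voom (0.959) and without compound library 1 (0.0848) or 2 (0.0842). No wild-type library had a read of it, and it stood at 3.43, 3.45 and 3.86 RPKM in the compound mutant, at 5.79, 7.52 and 4.35 RPKM in NrasG12D/+ and at 5.44, 1.21 and 3.41 RPKM in Tet2+/-. The size of the fitted value depends on the prior that stands in for 0 reads, and the gene met the minimum only through the compound libraries. Groups of 3 libraries are too small for a check of single outlying libraries.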

How the results depend on the processing

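The count of genes past the adjusted threshold between compound mutant and wild type was 1. It was 0 on log2(RPKM + 0.5), after quantile normalization, with only the 6 libraries compared and with voom, and 2 without a variance trend (with Robo3 at an adjusted p of 0.0338, limma); leaving out single libraries gave 1 to 13, with 13 without wild-type library 2, 6 without compound library 3 and 2 without compound library 1. The cause was not tested. The count of higher genes at unadjusted p under 0.05 was 341 to 807 without single libraries and 338 to 582 otherwise, and that of lower genes 317 to 598 and 318 to 576. The interaction count of 1 was 2 without a filter, with the filter over 12 libraries and with library quality weights, 0 on log2(RPKM + 0.5), after quantile normalization, with voom and with the replicate block, and 0 to 5 without single libraries; it could not be fitted with only 6 libraries. With the replicate block the counts were 1 past the threshold, 503 higher and 455 lower. Compound and wild-type libraries of the same number correlated at 0.0229, -0.0249 and 0.0565 in their deviations over all genes, too low to take the numbers as pairs. Same-numbered libraries did share some values: library 1 was male and library 2 female in all 4 genotypes, and immediate early genes were highest in library 2. Library 3 was male in Tet2+/- and female in the other genotypes. With the replicate block 3 of the 16 immediate early genes were lower at unadjusted p under 0.05, in place of 0, and 0 passed the adjusted test.

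The Tet2 difference of 0.002 was -0.0086 after median centring, -0.00611 after quantile normalization, -0.0187 with quality weights and -0.0957 to 0.0711 without single libraries. The Rrad difference of 2.15 was -1.09 to 4.002 without single libraries, the lowest without wild-type library 3. The log2 difference of 122 of 124 named genes kept its sign under all 16 alternatives. Much of this was fixed in advance. Many of these genes were named because their groups do not overlap, so leaving out 1 library cannot reverse them. Changes of the filter, the block, the variance trend or the libraries sharing the fit leave a gene's log2 difference as it is. Of 350 list medians under alternatives, 305 moved by less than 1 SD, and the block and the fit of only 6 libraries cannot move a median. Depth limits genes with few reads most, above all in wild-type library 1. With 3 libraries a group, a difference that misses the threshold is not shown to be absent.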

Other observations

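Among genes with a compound mean of at least 10 RPKM, short RNAs had some of the widest spreads between compound libraries. Rnu73b, a small nuclear RNA gene, was at 132 and 65.8 RPKM in compound libraries 1 and 2 and had 0 reads in library 3. n-R5s174, a 5S ribosomal RNA gene, had 0 reads in compound library 1 and stood at 48.6 and 10.6 RPKM in libraries 2 and 3. Xist, the other wide gene, follows the sex of the mice.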
